A study of Bos taurus with 106 samples.

Results

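The ubiquitin and proteasome system of bovine liver was followed from the dry period into lactation through 100 array elements of 81 genes, out of 8208 elements in all. An element is a cDNA clone spotted on the array. Members were chosen by symbol: the proteasome genes PSMA to PSME and PSMG, the ubiquitin-conjugating UBE2 genes, the activating UBA genes, the deubiquitinating USP genes and the F-box genes (FBX). Proteasome subunits and their chaperones made up 30 elements of 26 genes, and ubiquitin enzymes made up 69 elements of 54 genes. The last element, PSME3IP1, shares the letters of a proteasome gene but encodes a protein that binds an activator, and it was kept apart. All 30 proteasome elements and 68 of the 69 enzyme elements had enough values to be tested. The exception was an element of USP7. PSME2 and PSMD4 were not analysed here.

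Liver came from 8 Holstein cows that all received a diet of moderate energy density (1.60 Mcal/kg) through a dry period of 65 days. In 4 cows feed was held to roughly 80% of what the NRC requires, and the other 4 ate ad libitum and took in about 120%. Samples were taken on days -65, -30, -14, 1, 14, 28 and 49 relative to calving. Of the 53 combinations of cow and day, day -65 had 7 cows (3 ad libitum), day 49 had 6 (2 ad libitum), and each other day had 8 (4 per diet). Each sample was hybridised on 2 arrays, with the dyes exchanged, against a reference pool of other tissues that held no liver. A level is therefore given as the log2 ratio of liver over reference, relative to the median element of the array, and says nothing of the amount of one transcript against another. Liver is a bulk tissue here, so fewer cells of a type and less RNA per cell cannot be told apart.

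Ubiquitin is attached to proteins by a relay. An activating enzyme (E1) charges ubiquitin, a conjugating enzyme (E2) carries it, and a ligase (E3) chooses the target. F-box proteins are the target-binding parts of one ligase type, the SCF complex, and the USP enzymes remove ubiquitin again. Marked proteins are unfolded by the regulatory particle of the proteasome, which holds a ring of ATPases and a set of non-ATPase subunits, and are cut in the core particle, a barrel of alpha and beta subunits. Interferon gamma makes cells exchange the cutting beta subunits for PSMB8, PSMB9 and PSMB10, which form the immunoproteasome and favour peptides suited to display on MHC class I. In liver this system turns over metabolic enzymes and damaged proteins.

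Technical agreement differed between days. The correlation over elements between both dye orientations of a sample was 0.841 ± 0.024 over the cows of day -65 (SD, n = 7). Days -30 and 28 gave 0.881 ± 0.018 and 0.880 ± 0.017 (SD, n = 8 each), whereas days -14, 1 and 14 gave 0.753 ± 0.088, 0.713 ± 0.145 and 0.749 ± 0.10 (SD, n = 8 each). The samples carried hepatocyte transcripts: 4 marker elements (SLC10A1, TF, RBP4 and APOA1) averaged between 4.54 and 5.07 over the cows on day -65. On day -14 they averaged between 3.53 and 4.00, and 3 of the 4 fell against day -65. Markers of sinusoidal endothelium fell for 6 of 9 elements and rose for 1, and markers of stellate cells and fibroblasts rose for 5 of 9. Of 17 Kupffer cell and macrophage elements 5 fell and 1 rose, and their mean ranged from 2.30 to 3.21 on day -65 and from 2.12 to 2.83 on day -14. The neutrophil marker S100A12 rose by 0.67 ± 0.21 to day -14 and by 0.87 ± 0.20 from there to day 1, and fell by 0.74 (SE 0.20) from day 14 to day 28. The part of these marker shifts in the differences between days was not tested. Without the 4 cow-days whose orientations correlated under 0.6, 9 proteasome and 20 enzyme elements passed at day -14 against day -65, beside 8 and 23 with them. Of all 8061 elements 2342 passed without these cow-days and 2559 with them.

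Proteasome transcripts varied over the 7 days, but not more often than other elements. The F test of limma over days passed for 11 of 30 proteasome elements (36.7%) and for 30 of 68 ubiquitin enzyme elements (44.1%), where 43.4% of all 8061 tested elements passed at an adjusted p under 0.05. Averaged over its 30 elements, the proteasome stood at -0.26 ± 0.09 on day -65 (SD, n = 7) and -0.27 ± 0.07 on day -30 (SD, n = 8). It stood at -0.10 ± 0.14 on day -14, -0.02 ± 0.10 on day 1, -0.17 ± 0.18 on day 14 and -0.12 ± 0.08 on day 28 (SD, n = 8 each), and at -0.22 ± 0.09 on day 49 (SD, n = 6). The mean of the 68 enzyme elements stayed between -0.05 and 0.05 on every day.

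Days -14 and -65 bracket most of the dry period. At day -14, 6 proteasome elements had risen and 2 had fallen, which is 26.7% of 30, beside 31.7% of all tested elements (17.9% higher and 13.8% lower). The median difference was 0.18 over the proteasome elements and 0.05 over all elements, and 22 of 30 lay above 0. The plot of differences by subunit group shows the 6 increases spread over the alpha ring, the beta ring, the immunoproteasome and the ATPase ring. Both decreases lie in the non-ATPase group, formed from the PSMD symbols, which includes the assembly chaperone PSMD5. Without centring, when the median of all elements was 0.54, 16 proteasome elements passed and all 16 were higher. Of all 8061 elements 3815 passed then, 3754 of them higher. The count of 8 became 4 without cow 7161 and 5 without cow 7187, while that of all elements went from 2559 to 1680 and 1459.

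**Figure D1:**
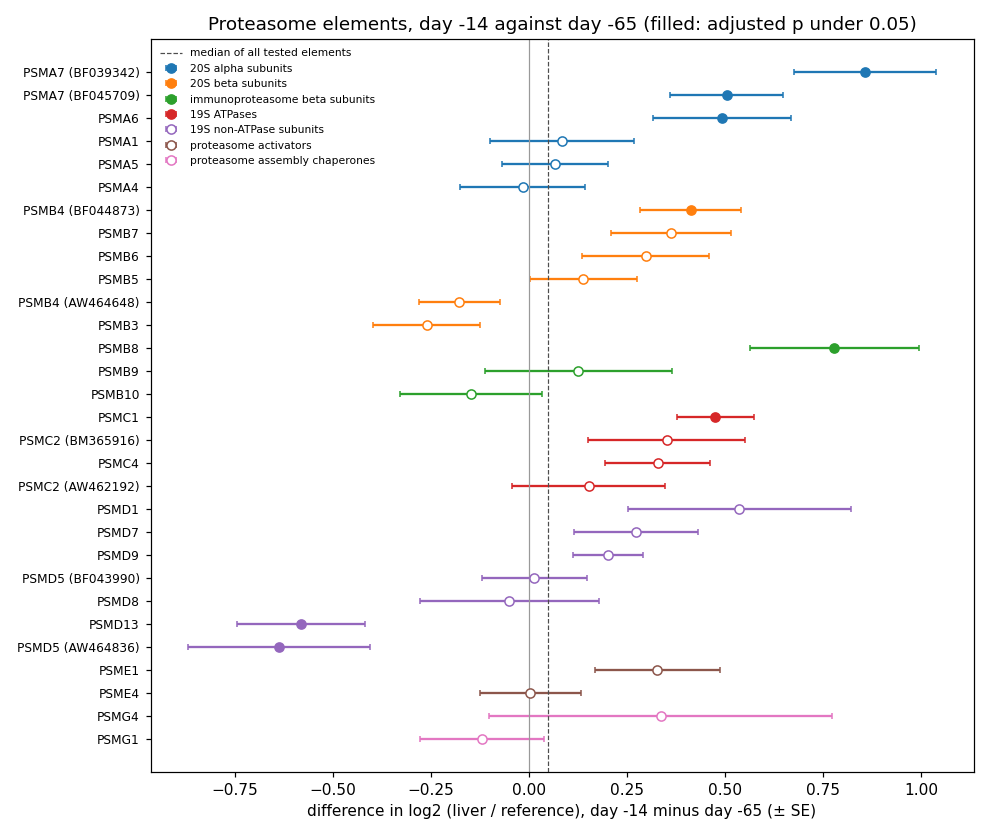
Difference in log2 liver over reference between day -14 and day -65 (x axis, ± SE) for each of the 30 proteasome elements (rows), coloured by subunit group. Filled points passed at an adjusted p under 0.05, and the dashed line is the median of all 8061 elements (0.05). PSMA7 lies farthest right at 0.86, and PSMD5 (AW464836) farthest left at -0.64.

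Among the alpha subunits of the core barrel, which gate the entry of substrate, 3 of 6 elements rose (50%, beside 17.9% of all). PSMA7 was represented by 2 elements, named here by their clone accession. Element BF039342 of PSMA7 had a lowest, median and highest value of -0.97, -0.62 and -0.38 on day -65 and of -0.37, 0.29 and 0.55 on day -14. The 7 values of day -65 and the 8 of day -14 did not overlap. It rose by 0.86 ± 0.18 (SE; adjusted p = 0.000382) in 7 of 7 cows, reached 0.28 ± 0.43 (SD, n = 8) on day 1 and was back at -0.37 ± 0.12 (SD, n = 6) on day 49. Element BF045709 of PSMA7 rose by 0.50 ± 0.14 (adjusted p = 0.00745), and both elements followed each other over the 53 cow-days (r = 0.87). PSMA6 ranged from -0.46 over a median of -0.24 to 0.14 on day -65 and from -0.44 over 0.32 to 1.00 on day -14. These ranges overlapped, with 6 of 7 cows higher, a rise of 0.49 ± 0.18 (adjusted p = 0.0288), and its mean was highest on day 1, at 0.59 ± 0.25 (SD, n = 8). The calls of PSMA6 and of PSMA7 (BF045709) were lost with the liver in Cy3 alone and when cow 7161 or cow 7187 was left out, and that of PSMA6 also without cow 6877 or cow 7045. PSMA1, PSMA4 and PSMA5 had differences between -0.02 and 0.08 and did not pass. PSMA5 had negative means on all days, from -0.64 to -0.27.

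In the beta ring, which holds the cutting sites, PSMB4, a subunit without a cutting site of its own, passed with 1 of its 2 elements. Element BF044873 of PSMB4 ranged from -0.42 over -0.39 to 0.08 on day -65 and from -0.33 over 0.18 to 0.80 on day -14. It rose by 0.41 ± 0.13 (adjusted p = 0.0132) in 7 of 7 cows, although the ranges overlapped, and the call was lost without cow 7105 or cow 7161 and with the liver in Cy3 alone. Element AW464648 of PSMB4 stood at -0.18 ± 0.10 (adjusted p = 0.194). PSMB5, PSMB6 and PSMB7 carry the chymotrypsin-like, caspase-like and trypsin-like activity of the constitutive proteasome. Their differences were 0.14 ± 0.14, 0.30 ± 0.16 and 0.36 ± 0.15, and none passed. Over all 7 days PSMB5 did pass the F test (adjusted p = 0.00825), with its lowest mean on day 49 (-0.23 ± 0.18, SD, n = 6) and its highest on day 1 (0.34 ± 0.34, SD, n = 8). PSMB3 passed too (adjusted p = 0.024), with means of -0.32, -0.30 and -0.22 on days -14, 1 and 14 and of 0.21 on day 49.

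The immunoproteasome subunits did not move as a set. PSMB8, which takes the place of PSMB5, ranged from -1.31 over -1.04 to 0.68 on day -65, where cow 7045 alone lay above 0, and from -0.66 over -0.04 to 0.64 on day -14. The ranges overlapped, and the rise of 0.78 ± 0.22 (adjusted p = 0.00549) was seen in 6 of 7 cows. PSMB8 passed in every alternative fit, with differences from 0.62 to 1.26, and its mean fell to -0.95 ± 0.22 (SD, n = 6) by day 49. PSMB9, which takes the place of PSMB6, had a lowest, median and highest value of -0.81, -0.69 and 0.78 on day -65 and of -0.67, -0.26 and 0.16 on day -14. Its difference was 0.13 ± 0.24 (adjusted p = 0.731), and PSMB10, which takes the place of PSMB7, stood at -0.15 ± 0.18 (adjusted p = 0.573). PSMB10 ranged from -0.17 over -0.08 to 0.75 on day -65 and from -0.44 over -0.18 to 0.33 on day -14. Of 8 T and NK cell marker elements, 1 (CD8A) rose over the same interval, and their mean ranged from 0.68 to 1.07 on day -65 and from 0.51 to 1.49 on day -14; their part in the PSMB8 result was not tested.

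Single cows stood out in these subunits at different times. PSMB8, PSMB9 and PSMB10 each had their highest of 53 values in cow 7105 on day 1, at 1.07, 1.30 and 1.02, against medians of -0.59, -0.40 and -0.03. Both dye orientations gave high values there, 0.93 and 1.68 for PSMB9. In cow 7045 on day -65 the same 3 elements stood at 0.68, 0.78 and 0.75, and in cow 7161 on day 14 at 0.41, 0.83 and 0.72. Over the 53 cow-days PSMB9 correlated with PSMB8 (Pearson r = 0.74, Spearman rho = 0.60) and with PSMB10 (r = 0.74, rho = 0.61), and PSMB8 with PSMB10 less closely (r = 0.32, rho = 0.06). Cow-days of one cow share an animal and all share the reference, so these correlations are descriptions.

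Outside the proteasome, IRF1, an interferon-induced transcription factor that switches on immunoproteasome genes, had the highest correlation with the mean of PSMB8, PSMB9 and PSMB10 among 5259 elements with a symbol and complete values (r = 0.84, rho = 0.73). TAP1, a part of the peptide transporter for MHC class I, came next (r = 0.78, rho = 0.67). Its highest value, 1.15, and that of IRF1, 1.28, also belonged to cow 7105 on day 1. PYCARD (r = 0.74), an inflammasome adaptor, and NLRC5 (r = 0.71), an activator of MHC class I genes, followed. Without the 2 cow-days farthest from the median the correlations were 0.75 for IRF1, 0.68 for TAP1 and 0.69 for NLRC5. These genes were looked up after the values of the subunits had been seen. The list of antigen processing and interferon genes had 14 elements apart from these subunits, not all of them from outside the proteasome. Of these 14, 4 had an r above 0.5, and the median was 0.24 with a lowest value of -0.02. The 17 Kupffer cell and macrophage elements had r from -0.18 to 0.55 (median 0.24, 1 above 0.5), the 8 T and NK cell elements from 0.14 to 0.42 (median 0.19) and the 4 hepatocyte markers from -0.22 to 0.15 (median -0.15).

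PSME1, a subunit of the activator that interferon gamma induces, was not called between days -14 and -65. Its lowest, median and highest values were -0.98, -0.51 and 0.07 on day -65 and -0.75, -0.20 and 0.20 on day -14, a difference of 0.33 ± 0.16 (adjusted p = 0.113) with overlapping ranges. It passed over the 7 days (adjusted p = 0.0105), with its highest mean, 0.00 ± 0.39 (SD, n = 8), on day 1 and its lowest, -0.62 ± 0.25 (SD, n = 6), on day 49. PSME1 followed PSMB8 over the cow-days (r = 0.72, rho = 0.73). PSME4, the activator that acts on histones, differed by 0.00 ± 0.13 between days -14 and -65. The assembly chaperones PSMG1 and PSMG4 stood at -0.12 ± 0.16 and 0.34 ± 0.44, and did not pass in any comparison. PSMG4 was the least precise, with an SD of 1.38 on day -65.

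In the regulatory particle, the ATPase PSMC1, which helps open the gate of the core, ranged from -0.72 over -0.55 to -0.47 on day -65 and from -0.55 over -0.16 to 0.44 on day -14. The ranges overlapped at their edge, and the rise of 0.48 ± 0.10 (adjusted p = 0.000288) was seen in 7 of 7 cows and in every alternative fit. On day -14 its mean was 0.19 ± 0.25 (SD, n = 4) in restricted cows and -0.42 ± 0.13 (SD, n = 4) in ad libitum cows, and the F test of diet by day gave an adjusted p of 0.135 for PSMC1. PSMC4 (0.33 ± 0.13, adjusted p = 0.0559) and both elements of PSMC2 (0.15 ± 0.20 and 0.35 ± 0.20) lay above 0 and did not pass.

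Among 7 elements of the non-ATPase group 2 fell (28.6%, beside 13.8% of all). Both belong to the correlated members described below with the diet comparison. PSMD13, a scaffold subunit, ranged from -0.15 over -0.06 to 0.37 on day -65 and from -1.64 over -0.49 to 0.34 on day -14. It fell in 6 of 7 cows, by 0.58 on the log2 scale (SE 0.16, adjusted p = 0.00609), while its spread grew from an SD of 0.18 to 0.60. Element AW464836 of PSMD5, a chaperone of ATPase ring assembly, differed by -0.64 ± 0.23 (adjusted p = 0.0329), whereas element BF043990 of the same gene differed by 0.01 ± 0.13. The decrease of PSMD5 (AW464836) was lost in 10 alternative fits, among them those without any single one of the cows 6886, 6952, 7045, 7105, 7161 and 7187, and that of PSMD13 without centring and with the liver in Cy5 alone. PSMD1, PSMD7, PSMD8 and PSMD9 had differences from -0.05 to 0.54 and did not pass. PSME3IP1, which is no subunit, rose by 0.58 ± 0.11 (adjusted p = 5.46e-05).

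**Figure D2:**
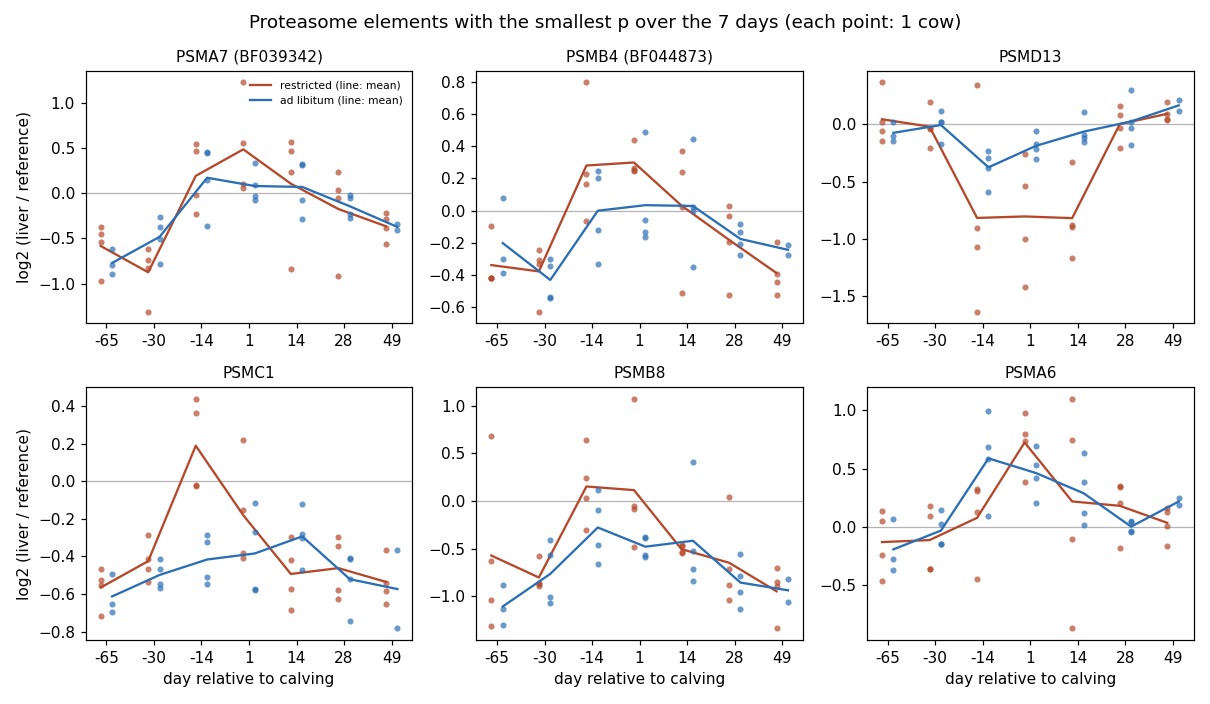
Log2 liver over reference (y axis) by day relative to calving (x axis) for the 6 proteasome elements with the smallest p over the 7 days. Each point is a cow, coloured by diet, and lines join the means of each diet. PSMA7 and PSMB4 have their highest means between days -14 and 14, and the restricted cows spread down to -1.64 for PSMD13.

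The proteasome elements did not share a single course. Over the 53 cow-days the median correlation of their 435 pairs was 0.10, with a lowest value of -0.65 and a highest of 0.95, and 57.7% of pairs lay above 0. PSMA6 was closest to the mean of the set (r = 0.84), and PSMD13, PSMD5 (AW464836) and PSMB3 ran weakly against it (r from -0.14 to -0.10). Among 5166 other elements with a symbol and complete values, TXN (thioredoxin), NDUFA4 (a respiratory chain protein) and MDH1 (cytosolic malate dehydrogenase) correlated best with that mean, with r = 0.84, 0.84 and 0.81. Points share the reference and the arrays' centring.

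Ubiquitin enzymes changed in both directions over the dry period, at shares near those of all elements. At day -14 compared with day -65, 14 of 68 elements were higher (20.6%, beside 17.9% of all elements) and 9 were lower (13.2%, beside 13.8%). The median difference was 0.08. Without centring 37 elements passed, 36 of them higher, beside 3815 of all 8061, of which 3754 were higher. Leaving out cow 7045 or cow 7187 lowered the total to 15 or 13, and that of all elements from 2559 to 2079 or 1459. The 4 largest changes in size belonged to F-box genes and USP2.

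F-box genes, target readers of SCF ligases, rose for 4 of 16 elements (25%, beside 17.9% of all) and fell for 2 (12.5%, beside 13.8%). FBXL2 had a lowest, median and highest value of -0.57, -0.28 and 0.14 on day -65 and of 0.10, 0.82 and 1.80 on day -14. The ranges met at their edge, and it rose by 1.16 ± 0.17 (adjusted p = 1.25e-06) in 7 of 7 cows. Its mean stayed high on day 1 (0.74 ± 0.38, SD, n = 8) and day 14 (0.49 ± 0.27) and was -0.24 ± 0.28 on day 28. FBXO31 (BF046302) ranged from -0.07 over 0.25 to 0.76 on day -65 and from 0.47 over 1.37 to 1.86 on day -14, a rise of 1.08 ± 0.19 (adjusted p = 3.88e-05) in 7 of 7 cows. Its mean was highest on day 1, with a lowest, median and highest value of 0.77, 1.70 and 2.37. Another element of FBXO31, AW464111, showed no such course: it differed by -0.31 and correlated with the first by -0.07.

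FBXO21 took the opposite course. Its lowest, median and highest values were 0.87, 1.24 and 1.86 on day -65 and -1.43, -0.08 and 1.68 on day -14. It fell in 6 of 7 cows, by 1.31 on the log2 scale (SE 0.26, adjusted p = 0.000197). The remaining cow was 0.51 higher on day -14 than on day -65. On day 49 its lowest, median and highest values were 1.27, 1.60 and 1.80 (n = 6). FBXO32, known as atrogin-1 and as a mediator of muscle wasting in mice, rose by 0.56 ± 0.13 (adjusted p = 0.00151) in 6 of 7 cows, and the call was lost with the liver in Cy5 alone. FBXL20 (BM363946) rose by 0.43 ± 0.15, a call lost in 7 of 16 alternative fits, and FBXL6 differed by -0.66 ± 0.25. FBXO30 had no call here, and FBXW11, a reader of phosphorylated targets such as beta-catenin, kept means between -1.07 and -0.89 on all days.

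Deubiquitinating enzymes rose for 6 of 24 tested elements (25%, beside 17.9% of all) and fell for 3 (12.5%, beside 13.8%). USP2, which stabilises clock proteins in mouse cells, ranged from -0.90 over -0.88 to -0.43 on day -65 and from -0.28 over 0.07 to 0.43 on day -14. The days did not overlap, and the rise of 0.79 ± 0.13 (adjusted p = 6.54e-06) was seen in 7 of 7 cows, though the call was lost with the liver in Cy5 alone. It was already at -0.30 ± 0.34 (SD, n = 8) on day -30 and returned to -0.72 ± 0.15 (SD, n = 6) on day 49. USP10 (BF045312), which removes ubiquitin from p53 in human cells, ranged from -0.83 over -0.51 to -0.41 on day -65 and from -0.36 over -0.01 to 0.37 on day -14. These values did not overlap, and the rise was 0.51 ± 0.12 (adjusted p = 0.00152) in 7 of 7 cows.

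USP20 rose by 0.52 ± 0.13 in 6 of 7 cows. USP9X, a large deubiquitinase of many targets, fell with 2 of its 3 elements, by 0.65 (SE 0.15) for BF045648 in 7 of 7 cows and by 0.57 (SE 0.19) for AW464985 in 5 of 7. The call of AW464985 was lost in 7 of 16 alternative fits. Element BF040152 of USP9X stood at -0.15. The most divided gene was USP12, whose element BF046289 rose by 0.66 ± 0.17 (adjusted p = 0.00256) while AW461734 fell by 0.60 (SE 0.21, adjusted p = 0.0247) and AW463592 stood at 0.11. USP14, the deubiquitinase that binds the proteasome itself, passed over the 7 days (adjusted p = 0.0125) with means of -1.31 ± 0.40 on day -30 and -0.31 ± 0.56 on day 1 (SD, n = 8).

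Of 3 activating enzymes, UBA1, which starts the ubiquitin relay, rose by 0.42 ± 0.12 (adjusted p = 0.00874) in 6 of 7 cows, a call that was lost without cow 6886. UBA2, part of the activating enzyme of SUMO, differed by -0.57 ± 0.22 (adjusted p = 0.0495), and UBA3, which activates NEDD8, had means between -0.88 and -0.63 and did not pass over the days (adjusted p = 0.724). Within the conjugating enzymes 3 of 25 elements rose (12%, beside 17.9% of all) and 3 fell (12%, beside 13.8%). UBE2L3 (AW461511), which serves HECT and RBR ligases, had a lowest, median and highest value of -0.86, -0.78 and -0.66 on day -65 and of -0.70, -0.43 and -0.34 on day -14. All 7 cows were higher on day -14, by 0.29 ± 0.08 on average (adjusted p = 0.003), although the ranges overlapped slightly, and the call was lost with the liver in Cy3 alone. Its other element, BF039587, fell by 0.55 (SE 0.15, adjusted p = 0.00589). UBE2F (BF039141), the NEDD8-conjugating enzyme that activates cullin ligases, rose by 0.38 ± 0.10, UBE2H (AW465397) fell by 0.47 (SE 0.10) and UBE2W (AW465885) by 0.65 (SE 0.25). The decreases of FBXL6, UBA2, UBE2W (AW465885) and USP12 (AW461734) were each lost in 10 to 13 alternative fits. These elements, too, belong to the correlated members described below with the diet comparison. UBE2L6, which conjugates the interferon-induced ISG15, had means from 1.75 on day 49 to 2.72 on day 28. It passed over the 7 days (adjusted p = 0.0116).

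**Figure D3:**
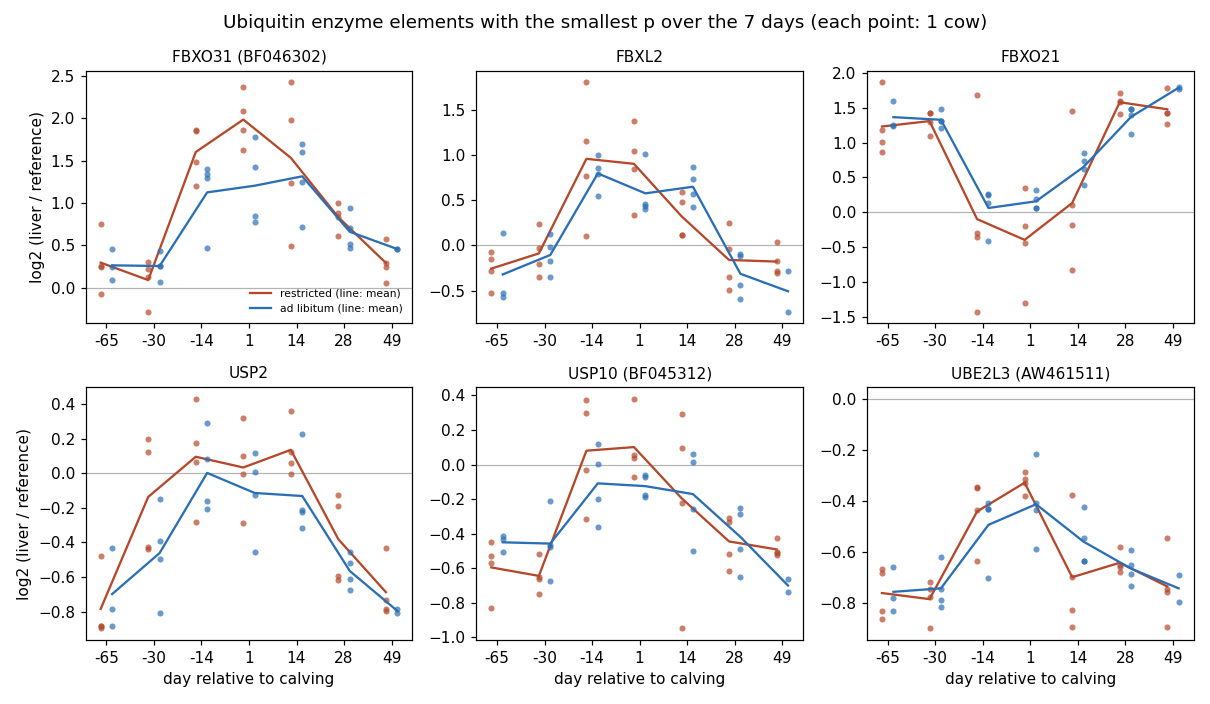
Log2 liver over reference (y axis) by day relative to calving (x axis) for the 6 ubiquitin enzyme elements with the smallest p over the 7 days. Each point is a cow, coloured by diet, and lines join the means of each diet. FBXO31, FBXL2, USP2 and USP10 are high on days -14 and 1, and FBXO21 is low on those days, down to -1.43.

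Elements of one gene often differed in their course. Among 17 genes with more than 1 element, 20 pairs of elements could be compared. Their correlation over the cow-days had a median of 0.38 and ranged from -0.48 to 0.94, with 6 pairs above 0.5. At day -14 compared with day -65, 9 pairs had differences of opposite sign. Of the 4 pairs in which both elements passed, those of PSMA7 and USP9X (BF045648 and AW464985) moved alike, and those of UBE2L3 and USP12 moved apart. The falling elements, UBE2L3 (BF039587) and USP12 (AW461734), belong to a group of closely correlated members described below with the diet comparison. Which element stands for the gene was not tested.

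**Figure D4:**
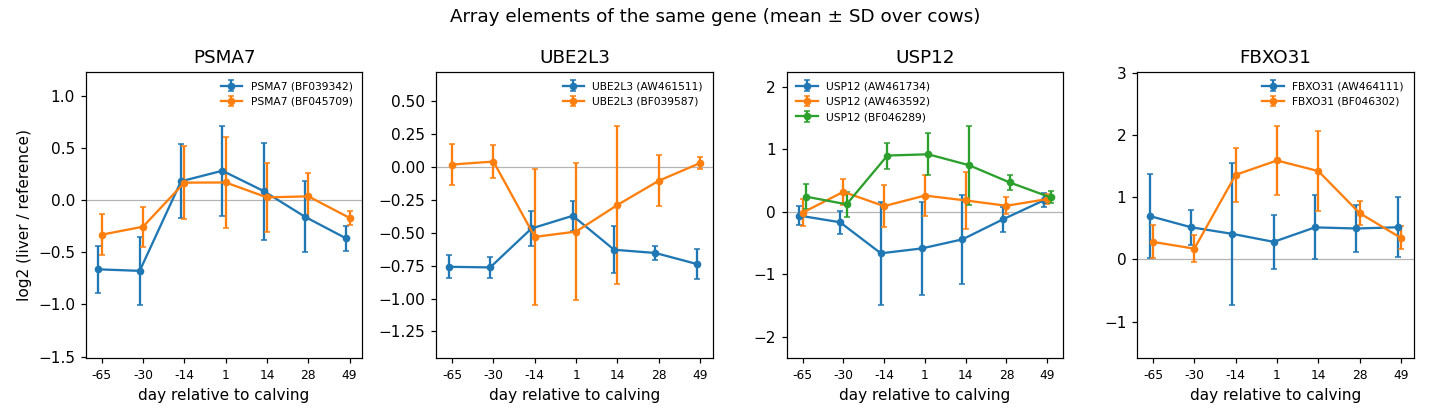
Mean log2 liver over reference ± SD over cows (y axis) by day relative to calving (x axis) for the array elements of PSMA7, UBE2L3, USP12 and FBXO31, a line per element. The PSMA7 elements run together (r = 0.87), while the UBE2L3 elements, far apart on day -65, move in opposite directions and meet near -0.5 on day -14.

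Across calving, from day -14 to day 1, no member passed in either class, beside 0.397% of all elements. An unadjusted p under 0.05 was reached by 1 of 30 proteasome and 9 of 68 enzyme elements, beside 795 of all 8061. The smallest unadjusted p belonged to UBE2T, a conjugating enzyme of DNA crosslink repair, at -0.27 ± 0.08 in 8 of 8 cows (adjusted p = 0.165). FBXO25 (-0.32 ± 0.10) and USP3 (-0.29 ± 0.10) followed, and UBE2K (0.40 ± 0.15), UBE2N (0.32 ± 0.13) and UBE2H (AW465397, 0.21 ± 0.10) led in the other direction. Among proteasome elements PSMA5 (0.27 ± 0.13), PSMA6 (0.26 ± 0.17) and PSMC2 (BM365916, 0.29 ± 0.19) had positive values, and PSMC1 (-0.17 ± 0.09), PSMD9 (-0.12 ± 0.09) and PSMD8 (-0.26 ± 0.22) negative ones.

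Between days 14 and 28 of lactation no proteasome element passed, and 1 of 30 had an unadjusted p under 0.05, beside 1634 of all 8061. Of the enzyme elements 8 of 68 passed (11.8%, beside 8.62% of all elements). Of these, 5 were higher (7.35%, beside 3.71% of all) and 3 lower (4.41%, beside 4.91% of all). FBXL2 fell by 0.72 (SE 0.16, adjusted p = 0.00231) in 8 of 8 cows, FBXO31 (BF046302) by 0.68 (SE 0.18) in 7 of 8 and USP2 by 0.48 (SE 0.12, adjusted p = 0.00794) in 8 of 8. With the liver in Cy5 alone the USP2 difference changed sign (0.106). FBXO21 rose by 1.08 ± 0.25 (adjusted p = 0.00378) in 8 of 8 cows. The lowest, median and highest FBXO21 values were -0.83, 0.51 and 1.46 on day 14 and 1.12, 1.48 and 1.71 on day 28. FBXO30 rose by 0.62 ± 0.16, USP9X by 0.53 ± 0.15 (BF045648) and 0.69 ± 0.21 (BF040152), and UBE2T by 0.28 ± 0.08, which changed sign without centring (-0.190). When the correlation between dye orientations was added as a covariate, FBXO21, USP2, UBE2T and USP9X (BF040152) no longer passed. Over all alternative fits, FBXO31 (BF046302) fell short of the threshold in 5 and USP9X (BF040152) in 8. UBE2T fell short in 9, besides its change of sign. Without centring 16 enzyme elements passed and none was higher, with the median of all elements at -0.44. Of all 8061 elements 2551 passed then, 35 of them higher. Without cow 6877 or cow 7187 the enzyme count was 5, and that of all elements was 511 or 500, beside 695 with all cows.

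Days 28 and -30 had close technical agreement and were compared to see whether early lactation differed from mid dry period. No member passed, beside 0.347% of all elements (0.261% higher and 0.0868% lower). An unadjusted p under 0.05 was found for 3 of 30 proteasome and 10 of 68 enzyme elements, beside 1273 of all 8061. The values nearest to a call belonged to UBE2L6, at 0.78 ± 0.21 higher on day 28 in 8 of 8 cows (adjusted p = 0.0693), and UBE2F (BF042730), at 0.33 ± 0.10 in 8 of 8 (adjusted p = 0.0829). FBXO31 (BF046302) stood at 0.57 ± 0.18 in 8 of 8 cows. PSMA7 was at 0.52 ± 0.17 (BF039342) and 0.29 ± 0.14 (BF045709), and PSMB7 at 0.31 ± 0.15. Among negative enzyme values the smallest unadjusted p belonged to USP46 (-0.28 ± 0.15), USP5 (-0.20 ± 0.12) and USP12 (AW463592, -0.22 ± 0.14). Of the proteasome elements, PSMD9 (-0.06 ± 0.09) and PSMC1 (-0.03 ± 0.09) were negative.

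The effect of the feeding level before calving was tested by averaging days -30 and -14 within each cow. No element of either class separated the diets by limma, nor did any of the 8061. An unadjusted p under 0.05 was found for 3 of 30 proteasome and 9 of 68 enzyme elements, beside 1043 of all. PSMC1 averaged -0.46 ± 0.07 (SD, n = 4) in ad libitum and -0.12 ± 0.13 in restricted cows without overlap, a difference of -0.34 ± 0.11 (adjusted p = 0.314). PSMC4 (-0.32 ± 0.12) and PSMB9 (-0.21 ± 0.15) also had lower values in ad libitum cows, and PSME4 (0.33 ± 0.14), PSMA1 (0.37 ± 0.18) and PSMC2 (AW462192, 0.32 ± 0.15) higher ones. Among the enzymes UBE2K (0.41 ± 0.11), USP14 (0.56 ± 0.18) and UBE2V2 (0.42 ± 0.15) were on the higher side and UBE2F (-0.35 ± 0.12 and -0.25 ± 0.11 for its elements) and UBA1 (-0.31 ± 0.12) on the lower.

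After calving, when all cows were in lactation, 11 members differed between the earlier feeding levels, at shares near that of all elements. On the mean of days 1, 14 and 28, 3 of 30 proteasome elements passed (10%) and 8 of 68 enzyme elements (11.8%). Of all elements 10.4% passed. All 11 were higher in cows that had eaten ad libitum, and no member was lower. The 835 calls among all elements went mostly the same way, with 786 higher (9.75% of all tested) and 49 lower (0.608%). The median difference was -0.11 over proteasome elements, -0.07 over enzymes and -0.06 over all elements, so the medians lay on the other side of 0. In all 11 the cows of both diets did not overlap, but these members were chosen by their call on the same cow means. How many of all elements separate the cows in this way was not counted. Without centring 1 and 5 members passed, beside 312 of all 8061 elements. Without cow 6877 the proteasome count was 5, and 932 of all elements passed.

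PSMD5 (AW464836) was -0.94 to -0.76 in the 4 restricted cows and -0.07 to 0.11 in the 4 ad libitum cows, a difference of 0.87 ± 0.09 (adjusted p = 0.001). FBXL6 was -0.93 to -0.72 and -0.03 to 0.27, a difference of 0.92 ± 0.10 (adjusted p = 0.001). UBA2 was -1.09 to -0.85 and -0.30 to 0.10, a difference of 0.87 ± 0.11. In each, the ad libitum cows lay near the array median and the restricted cows well below it. UBE2W differed by 0.88 ± 0.11 (AW465885) and 0.67 ± 0.13 (AW465135), USP12 (AW461734) by 0.81 ± 0.11 and UBE2L3 (BF039587) by 0.56 ± 0.11. USP11 differed by 0.53 ± 0.10, UBE2D2, a conjugating enzyme of many ligases, by 0.48 ± 0.12, PSMD13 by 0.47 ± 0.10 and PSMB3 by 0.44 ± 0.11 (adjusted p = 0.0308). PSMB3 and UBE2D2 lost the call under 10 or more alternatives each, whereas PSMD5 (AW464836), FBXL6, UBA2, UBE2W (AW465885) and USP12 (AW461734) passed in all of them.

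**Figure D5:**
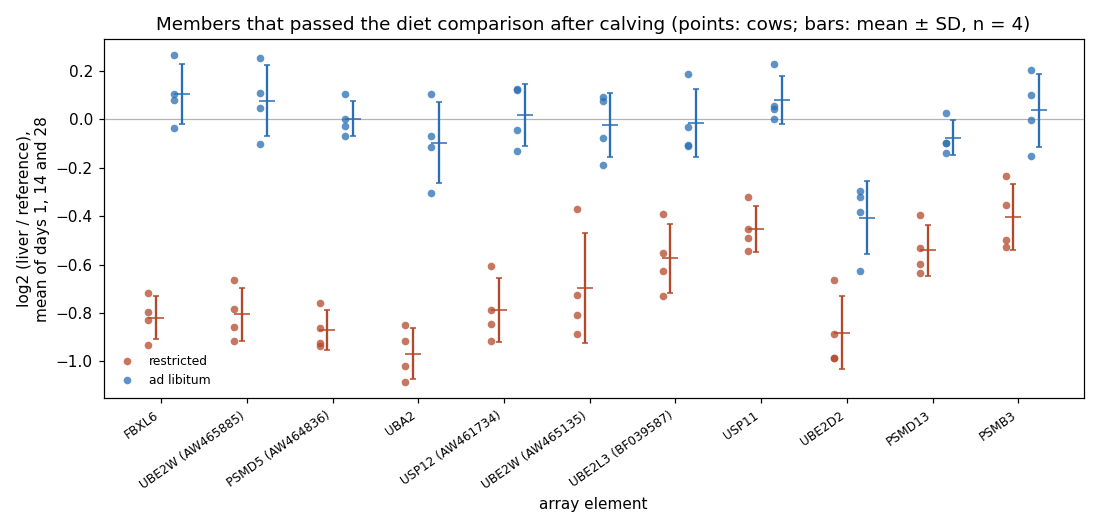
Log2 liver over reference averaged over days 1, 14 and 28 (y axis) for the 11 members that passed the diet comparison after calving (x axis). Points are cows, coloured by diet, with the mean ± SD of 4 cows beside them. All 4 ad libitum cows lie above all 4 restricted cows in each element, and the elements were chosen by their call on these values.

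Many elements outside the ubiquitin system shared the course of these members. Apart from UBE2D2, the other 10, chosen by their call, correlated with one another over the 53 cow-days by 0.81 to 0.99. Their mean was -0.13 ± 0.11 (SD, n = 4) in restricted cows on day -30, then -0.85 ± 1.02 on day -14, -1.02 ± 0.54 on day 1 and -0.92 ± 0.42 on day 14, and -0.14 ± 0.12 on day 28. In ad libitum cows it was -0.14 ± 0.13 (SD, n = 4), -0.35 ± 0.32, -0.03 ± 0.15, 0.14 ± 0.10 and -0.08 ± 0.18 on those days. The diets' means were farthest apart on days 1 and 14, when the correlation of the dye orientations was 0.634 and 0.721 in ad libitum cows and 0.793 and 0.776 in restricted cows. Without the 4 cow-days of lowest agreement 2 proteasome and 7 enzyme elements passed after calving, beside 720 of all. With agreement as a covariate 3 and 6 passed, beside 670 of all. Of all 8061 elements 577 (7.16%) correlated with this mean by more than 0.9, and they included 573 of the 786 elements that were higher in ad libitum cows. For PSMD5, USP12 and UBE2L3 other elements of the same gene were among the members, at -0.02 for PSMD5, -0.21 and -0.32 for USP12 and 0.01 for UBE2L3. The interaction of diet and day passed for no member, beside 0.806% of all elements. An unadjusted p under 0.05 was reached by 4 of 30 proteasome and 13 of 68 enzyme elements, beside 1467 of all 8061. The smallest adjusted p was 0.0891, for UBE2L3 (BF039587). That count of none turned on single cows: 5 proteasome and 8 enzyme elements passed without cow 6877, when 1036 of all elements did, and 3 and 6 without cow 6952, when 843 did.

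Other genes of the pathway were taken from lists, whose counts stand beside 17.9% of all elements higher and 13.8% lower at day -14 against day -65. These lists are small, and nothing particular to them was tested. Between days -65 and -14, VCP, the ATPase p97 that pulls ubiquitinated proteins out of membranes and complexes, rose with both elements, by 0.78 ± 0.21 and 0.58 ± 0.16, and so did its cofactor NPLOC4, by 0.51 ± 0.12. Of 20 elements for p97 and ubiquitin shuttle genes 5 rose and none fell. Among 11 elements for proteasome regulators 3 rose and 1 fell, with AKIRIN2, which brings proteasomes into the nucleus, up by 0.66 ± 0.12 and 0.41 ± 0.12, PAAF1, an ATPase-binding regulator, up by 0.43 ± 0.12, and ADRM1, a ubiquitin receptor of the proteasome, down by 0.69 (SE 0.20). In the SCF and cullin core 3 of 19 rose and 2 fell. CAND1, the exchange factor of SCF complexes, rose by 0.62 ± 0.15, and CUL4A had elements at 0.49 ± 0.11 and -0.54 ± 0.12, both past the threshold.

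Of 23 elements for other ubiquitin ligases 6 rose and 3 fell, with ARIH2 up by 0.44 ± 0.10, RNF5, a ligase of the endoplasmic reticulum, up by 0.43 ± 0.11, and WWP2 down by 0.51 (SE 0.17). SYVN1, the main ligase for misfolded proteins of that organelle, passed over the 7 days (adjusted p = 9.99e-06), with its lowest mean on day 49 (-0.79) and its highest on day 1 (-0.06). Deubiquitinases outside the USP family rose for 3 of 7 elements, among them OTUD5 (0.32 ± 0.09). In the list of antigen processing and interferon genes, which includes PSMB8, PSMB9 and PSMB10, 4 of 17 elements rose and 2 fell. TAPBP, the tapasin that loads MHC class I, was up in both elements (0.43 ± 0.11 and 0.51 ± 0.12) and IFI6 was down by 0.39 (SE 0.11). Genes for ubiquitin-like proteins had 1 rise, UBL5 (0.51 ± 0.14), and 1 fall, UBL4A (0.63, SE 0.19), among 6 elements.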

How the data were processed

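The authors deposited a log2 ratio of Cy5 over Cy3 for each spot of 106 arrays, read with GenePix 4.0 from a Scanarray 4000 scanner per the submitters' processing notes and labels. How background was corrected and whether values were normalized is not given in the sources used here. Medians of the arrays ran from -1.68 to 1.79 as deposited, so the values had not been centred, and 1.23% of values were missing.

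The 2 spots of an element were averaged, the ratio was turned to liver over reference by the liver's dye in the title, and each array was centred on its median. A cow-day is the mean of both orientations, which removes a constant dye effect. Elements with at least 2 cows in each of 14 groups were tested (8061 of 8208). The model was fitted in limma (version 3.58.1; statmod 1.5.0, R 4.3.3) with 14 group means and cow as a random block, since the labels name the cow of each sample (within-cow correlation 0.0176). Diets were compared on 1 value per cow, as ad libitum minus restricted. P-values were adjusted by Benjamini-Hochberg over all elements at 0.05. The number of cows limits the precision. On simulated data, 100 elements were changed by 0.5 and 100 by 1 among 8061. The comparison of days -14 and -65 recovered 28 and 91 of them, and the diet comparison after calving 30 and 89. In the data 2559 and 835 elements passed, so the adjusted threshold was less strict and these shares do not carry over.

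All 100 elements matched RefSeq symbols, and 2 elements with several symbols were left out. Members and lists were chosen with earlier results of these data known. Members were named where they passed (the 10 largest each way where over 20 passed), or, where none passed, up to 3 each way by smallest p. Values by sample are given for the 6 elements of each class with the smallest p over days and for PSMB8, PSMB9, PSMB10 and PSME1, and up to 4 genes were named per list. Alternatives were no centring, scale normalization, either dye alone, agreement of orientations as a covariate, cow-days with agreement under 0.6 left out, complete values only, no block, and each cow left out.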

Additional observations from a re-analysis of the deposited data

Results flagged for a closer look

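In 180 groups of 4 cows, from 15 members, 11 had a cow whose gap to the nearest other cow exceeded Dixon's critical value of 0.829 of the group's range. Chance alone gives about 5% of groups.

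In restricted cows, PSMB10 stood at 0.753 in cow 7045 on day -65, with the nearest cow at -0.072, and at 0.70 in cow 7105 on day 28, with the nearest at 0.011. PSME1 stood at 0.0262 in that same cow and day, with the nearest at -0.294. PSMB8 stood at -0.583 in cow 6877 on day -30, with the nearest at -0.865. PSMB4 (BF044873) stood at -0.0956 in cow 6877 on day -65 and at 0.436 in cow 6952 on day 1, with the nearest cows at -0.420 and 0.265. USP2 stood at -0.477 in cow 7105 on day -65, with the nearest at -0.881.

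In ad libitum cows, PSMB4 (BF044873) stood at 0.491 in cow 7187 on day 1, with the nearest at -0.0565, and FBXL2 at 1.01 in cow 7050 on day 1, with the nearest at 0.457. On day -14, FBXO31 (BF046302) stood at 0.466 in cow 6886, with the nearest at 1.29. UBE2L3 (AW461511) stood at -0.701 in cow 7050 on that day, with the nearest at -0.433.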

How the results depend on the processing

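Counts of calls are given as proteasome and ubiquitin enzyme elements, and the cause of each move was not tested. Without centring, 20 proteasome elements passed over days, 16 and 37 at day -14 against day -65, 9 and 16 at day 28 against day 14, and 1 and 5 for diet after calving. Of all 8061 elements 4757, 3815, 2551 and 312 passed in these comparisons. With the agreement of orientations as a covariate 6 and 17 passed over days, beside 1951 of all. Scale normalization gave 2 and 17 at day 28 against day 14, beside 1649 of all, and 1 and 4 at day 28 against day -30, beside 380. The liver in Cy3 alone gave 4 and 16 at day 28 against day 14, beside 2349 of all, and 1 and 5 for diet after calving, beside 434. In Cy5 alone 14 enzyme elements passed at day -14 against day -65, beside 1861 of all, and 4 at day 28 against day 14, beside 208. Leaving out each cow gave 5 to 12 and 19 to 36 over days (lowest without cows 7187 and 7161), 4 to 10 and 13 to 25 at day -14 against day -65, 0 to 0 and 0 to 2 at day 1 against day -14 (2 without cow 6877), 0 to 1 and 5 to 10 at day 28 against day 14, 0 and 0 at day 28 against day -30 and for diet before calving, 2 to 5 and 7 to 9 for diet after calving, and 0 to 5 and 0 to 8 for diet by day (5 and 8 without cow 6877, 3 and 6 without cow 6952). Over all elements, leaving out each cow gave 2432 to 3608 over days, 1459 to 2927 at day -14 against day -65 and 3 to 96 at day 1 against day -14. It gave 409 to 1091 at day 28 against day 14, 639 to 932 for diet after calving and 0 to 1036 for diet by day. Samples of one cow pair the days. Without the replicate block 11 and 29 passed over days, beside 3417 of all, and 8 and 22 at day -14 against day -65, beside 2508. There the call of UBA2 was lost and no other named call changed. Of 51 named differences, 12 passed in every alternative, and 29 passed whichever 1 cow was left out. Of 804 values of named members under alternatives, 620 stayed past the threshold, 181 kept only their direction, and 3 changed sign. Those were UBE2H (AW465397) at day -14 against day -65 without centring (0.0184), UBE2T at day 28 against day 14 without centring (-0.190) and USP2 at day 28 against day 14 with the liver in Cy5 alone (0.106). On simulated data with 100 elements changed by 0.5 and 100 by 1, 28 of the 100 changes of 0.5 passed at day -14 against day -65. In the data 2559 elements passed, which makes the adjusted threshold less strict, so that share does not give the recovery there. The simulated noise was also independent between elements, unlike the data.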
